A study of Mus musculus with 16 samples.

Results

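The microRNAs (miRNAs) described here were the products of the cluster of miR-144 and miR-451 and of miR-486. They were chosen by name, as known erythroid miRNAs and with earlier results of these data known. In the table of counts they stood as mmu-miR-451a, both arms of miR-144 (mmu-miR-144-5p and mmu-miR-144-3p), the 5p arms mmu-miR-486a-5p and mmu-miR-486b-5p, and the 3p arms mmu-miR-486a-3p and mmu-miR-486b-3p, which made 7 of its 1377 names. The miR-486a and miR-486b rows of each arm held identical counts in 16 of 16 libraries, so the 7 names gave 5 distinct measurements, and the pair is called miR-486a here. All 5 were among the 568 miRNAs that passed the filter on low counts.

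Small RNA was sequenced from cultures labelled as bone marrow dendritic cells of male C57BL/6 mice, with 4 groups of 4 libraries. Each of the 4 mice gave 1 library to every group, and the labels give an age of 8 weeks for mice 1 to 3 and of 7 weeks for mouse 4. In all groups the marrow was freed of red cells by ammonium chloride lysis (ACK buffer) before plating, a step meant to remove mature erythrocytes. Control cultures had no stimulation, and the labels name no vehicle for them. The LPS group received lipopolysaccharide, a bacterial product sensed by TLR4, on day 8 for 6 h at 1 µg/mL. The quercetin group received the plant flavonol quercetin at 25 µM on days 5 and 7, and the quercetin plus LPS group received both on those schedules. The comparisons ask whether quercetin changed these miRNAs with and without LPS.

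A primary miRNA transcript is cut to a hairpin and then, usually by Dicer, to a duplex whose strands are called 5p and 3p. One strand is loaded into an Argonaute protein, and its seed, the bases near the 5′ end, pairs with target mRNAs and lowers their output. The locus of miR-144 and miR-451 is switched on by GATA1 during red cell formation, and miR-451 is among the most abundant miRNAs of erythrocytes. miR-451 is made without Dicer: Argonaute 2 cuts its short hairpin and the product is then trimmed. miR-486 is also abundant in erythroid cells and in muscle, and its gene lies on chromosome 8 within the span of Ank1, which encodes the erythrocyte membrane protein ankyrin 1.

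Of the 7 names, 3 matched the RefSeq table of miRNA sequences (build GRCm38.p6), and these are shown because the seed sets what each can pair with. Capitals mark the seed, bases 2 to 8 from the 5′ end:
miR-451a: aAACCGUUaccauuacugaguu
miR-144-3p: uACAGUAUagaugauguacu
miR-144-5p: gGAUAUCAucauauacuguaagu
The 3 seeds differed from each other, and none was shared with any other of the 1679 mature miRNAs in that table. Bases 2 to 7 of miR-144-3p were shared with 1 other miRNA, miR-101a-3p, which is printed with the same capitals for comparison:
miR-101a-3p: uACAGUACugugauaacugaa

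The cluster lies on the plus strand of chromosome 11 (GRCm38.p6), with the miR-144 hairpin at chr11:78073005-78073070 and the miR-451a hairpin at chr11:78073170-78073241. The hairpins are separated by 99 bases and overlap no protein-coding gene. The gene Eral1 runs on the opposite strand from 78073376 to 78080383, and a hairpin named miR-451b is annotated on the opposite strand at the span of miR-451a. The hairpins are shown with the mature products in capitals, because the place of the mature product differs between them:
miR-144 hairpin: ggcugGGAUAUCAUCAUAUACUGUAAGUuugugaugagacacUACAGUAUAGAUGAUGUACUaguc
miR-451a hairpin: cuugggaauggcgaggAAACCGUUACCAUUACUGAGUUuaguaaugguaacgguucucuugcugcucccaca
miR-144-5p takes bases 6 to 28 and miR-144-3p bases 43 to 62 of a hairpin of 66, one on each arm. miR-451a takes bases 17 to 38 of a hairpin of 72 and so runs across the loop, the feature that goes with its Dicer-independent route.

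Libraries differed in depth with treatment: the 8 libraries without quercetin held 8668513 to 13949915 counts and the 8 with quercetin 6459654 to 9041030. Levels are given in CPM (counts scaled to a fixed library total) after scaling by the trimmed mean of M-values (TMM). The general blood cell marker miR-142a-5p stood at a mean of 25390 CPM (control), 26660 (LPS), 20240 (quercetin) and 24600 (quercetin plus LPS), and the myeloid marker miR-223-3p at 2397, 2268, 1799 and 2417 CPM. miR-511-3p, made from an intron of the mannose receptor gene Mrc1 of macrophages and dendritic cells, stood at 31.9, 27.5, 42.5 and 37.9 CPM, and none of these 3 passed the test in either quercetin comparison. Of their opposite arms, miR-223-5p fell with quercetin against control (-0.98 on the log2 scale, adjusted p = 0.019, edgeR), and miR-142a-3p and miR-511-5p did not pass. With quercetin plus LPS against LPS the arms differed in sign, at -0.12 for miR-142a-5p and 0.59 for miR-142a-3p, and at 0.46 for miR-511-3p and -0.24 for miR-511-5p. The libraries are bulk RNA, so more cells of a type and more of a miRNA per cell cannot be told apart. The labels name no sort, and the table holds no mRNA, so globins and other erythroid mRNAs were not measured.

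Of the 5 measurements, 4 rose with quercetin in both settings, namely the 3 products of the cluster and miR-486a-5p. The exception was miR-486a-3p, the other arm of the miR-486 hairpin. Against control, 4 of the 5 were higher at an adjusted p under 0.05 (edgeR quasi-likelihood test, Benjamini-Hochberg over 568 miRNAs), where 6.87% of all miRNAs tested were higher, 8.98% lower and 15.8% changed in either direction. Against LPS alone, quercetin plus LPS gave the same 4 of 5 higher, where 8.63% of all were higher, 14.3% lower and 22.9% changed in either direction. The cluster products share a locus, and the miRNAs were chosen with earlier results of these data known. The counts of 4 of 5 are therefore descriptions and no independent test. The comparisons against control and against LPS alone share no library, but they used the same 4 mice and a shared estimate of the spread. Each of the 4 rises had the same direction in 4 of 4 mice in both. Except for miR-486a-5p against LPS alone, this follows from ranges that did not overlap, whatever the pairing of libraries.

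**Figure D1:**
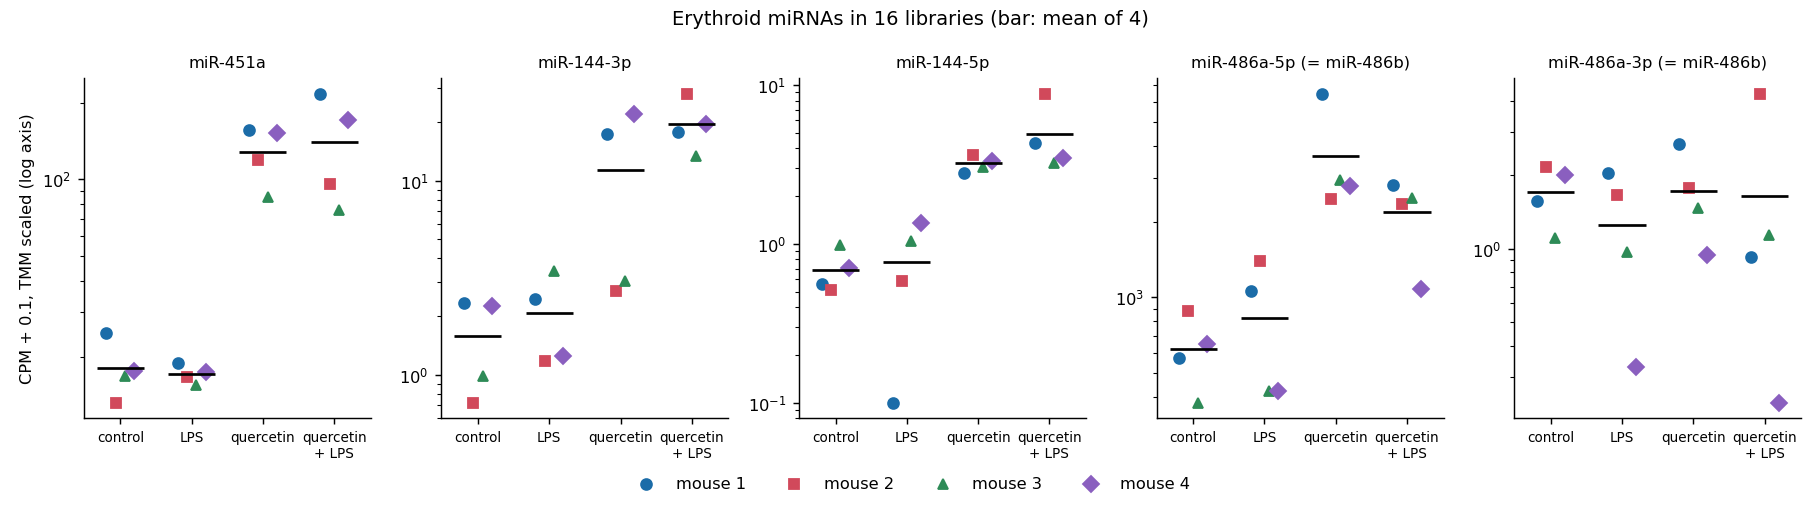
Levels of the 5 distinct measurements (CPM + 0.1 after TMM scaling, log axis) by group; each point is 1 library (4 per group, marked by mouse) and the line is the group mean. The libraries with quercetin lie above those without it for miR-451a and miR-144-5p, while miR-486a-3p shows no such separation.

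miR-451a was counted 322, 128, 133 and 202 times in control mice 1 to 4, and 225, 171, 195 and 152 times in LPS cultures. With quercetin it was counted 1273, 1138, 752 and 1268 times, and with quercetin plus LPS 2103, 827, 580 and 1267 times. The counts were thus higher in every library with quercetin although those libraries were shallower. As levels, the 8 libraries without quercetin ran from 13.1 to 24.9 CPM and the 8 with it from 75.5 to 216.5 CPM. The ranges did not overlap, which held for 2.29% of all miRNAs in this direction. Without quercetin the group means were 18.1 ± 4.94 CPM (control) and 17.1 ± 1.47 (LPS). In the quercetin group the mean was 128 ± 33.2 CPM, and in the quercetin plus LPS group 139.6 ± 65.5 (SD, n = 4 each).

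On the log2 scale miR-451a rose by 2.83 ± 0.33 (SE) with quercetin against control (adjusted p = 2.9e-05, edgeR). With quercetin plus LPS against LPS it rose by 3.03 ± 0.33 (adjusted p = 1.7e-05, edgeR). Within single mice, with 0.1 CPM added to each level, the ratio of quercetin to control was 6.27, 9.0, 5.08 and 8.66 for mice 1 to 4, and that of quercetin plus LPS to LPS was 11.4, 5.74, 4.86 and 9.71. Mouse 3 thus had the smallest ratio in both. By mean level miR-451a moved from place 269 (control) and 274 (LPS) among 568 miRNAs to 130 (quercetin) and 127 (both agents).

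miR-144-3p, the arm of the miR-144 hairpin usually held to be the active strand in erythroid cells, was rare without quercetin. It was counted 29, 6, 7 and 25 times in control and 28, 11, 42 and 10 times in LPS cultures of mice 1 to 4. With quercetin it was counted 141, 25, 26 and 184 times, and with quercetin plus LPS 172, 241, 102 and 146 times. In CPM these were 2.24, 0.616, 0.879 and 2.16 for control, 2.36, 1.07, 3.33 and 1.15 for LPS, 17.4, 2.62, 2.95 and 22.1 for quercetin alone, and 17.7, 28.0, 13.3 and 19.6 for quercetin plus LPS. The quercetin group was split, with mice 2 and 3 low and mice 1 and 4 high, while all 4 quercetin plus LPS libraries were high. The quercetin libraries lay above all controls, as held for all 4 rising measurements and for 10.4% of all miRNAs, but those of mice 2 and 3 lay below the LPS library of mouse 3.

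The difference of miR-144-3p between quercetin and control was 2.89 ± 0.67 on the log2 scale (adjusted p = 0.0084, edgeR), and between quercetin plus LPS and LPS it was 3.29 ± 0.66 (adjusted p = 0.0026, edgeR). The first of these calls held without any single library. It was lost without all libraries of mouse 1 (adjusted p = 0.0613, edgeR), of mouse 4 (0.0603) or without controls 3 and 4 (0.0603). It was also lost without control 3 and the 3 treated libraries of mouse 4 (log2 difference 2.15, adjusted p = 0.0805), which resembled one another across all miRNAs.

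miR-144-5p, the opposite arm, was the rarest of the 4 that rose. Its counts were 6, 4, 7 and 7 in control and 0, 5, 12 and 11 in LPS cultures of mice 1 to 4. Its counts were 22, 34, 26 and 27 with quercetin and 41, 75, 24 and 25 with quercetin plus LPS. The count of 0 in the LPS library of mouse 1 allows a level of up to 3 counts, or 0.253 CPM, counting error only. Levels ran from 0 to 1.26 CPM over the 8 libraries without quercetin and from 2.71 to 8.71 CPM over the 8 with it, again with no overlap.

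Group means of miR-144-5p were 0.590 ± 0.210 CPM (control), 0.676 ± 0.552 (LPS), 3.11 ± 0.368 (quercetin) and 4.86 ± 2.61 (both agents; SD, n = 4). It rose by 2.40 ± 0.60 on the log2 scale with quercetin (adjusted p = 0.013, edgeR) and by 2.86 ± 0.59 with quercetin plus LPS against LPS (adjusted p = 0.0029, edgeR). The first call was lost without mouse 2 (adjusted p = 0.0911) or mouse 4 (0.0612), and the second without mouse 2 (0.0527). Over all libraries and mice left out, its log2 differences ran from 2.20 to 2.66 against control and from 2.31 to 3.47 against LPS.

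miR-486a-5p was by far the most abundant of the 5 distinct measurements, with group means of 91.9% to 96.8% of their summed level. It was counted 7366, 8545, 3011 and 7506 times in control, and 12494, 14264, 5329 and 3677 times in LPS cultures of mice 1 to 4. With quercetin it was counted 52593, 23484, 25843 and 23144 times, and with quercetin plus LPS 27220, 20203, 19121 and 7987 times. In CPM the control libraries ran from 378 to 877, the LPS libraries from 423 to 1389, the quercetin libraries from 2458 to 6471 and the quercetin plus LPS libraries from 1075 to 2802. Quercetin and control did not overlap, whereas the quercetin plus LPS library of mouse 4 (1075 CPM) lay below the LPS library of mouse 2 (1389 CPM). In that comparison the ranges of the 3 cluster products were apart, as they were for 6.87% of all miRNAs.

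miR-486a-5p rose by 2.56 ± 0.46 on the log2 scale with quercetin (adjusted p = 0.0011, edgeR), and this call held in every alternative run. With quercetin plus LPS against LPS it rose by 1.41 ± 0.44 (adjusted p = 0.032, edgeR). That call was lost without the LPS library of mouse 3 (adjusted p = 0.0524) or mouse 4 (0.0536), or without the quercetin plus LPS library of mouse 1 (0.0512). It was also lost without mouse 1 (0.0712), mouse 3 (0.0675) or mouse 4 (0.0619), with log2 differences from 1.29 to 1.97 over all libraries and mice left out. By mean level miR-486a-5p moved from place 79 in control to 34 with quercetin, and from 72 in LPS to 49 with quercetin plus LPS, of 568.

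miR-486a-3p, the other arm of the same hairpin, was counted 19, 20, 8 and 22 times in control and 23, 16, 11 and 2 times in LPS cultures of mice 1 to 4. With quercetin the counts were 21, 16, 12 and 7, and with both agents 8, 36, 8 and 1. All 4 groups overlapped, with means of 1.61 ± 0.472, 1.15 ± 0.755, 1.61 ± 0.732 and 1.54 ± 1.80 CPM (SD, n = 4). Its log2 difference between quercetin and control was -0.0030 ± 0.66 (adjusted p = 1.00, edgeR), with a 95% interval from -1.40 to 1.40. Between quercetin plus LPS and LPS it differed by 0.42 ± 0.69 (adjusted p = 0.73, edgeR), a difference that stayed positive under the other scalings and was -0.57 without the quercetin plus LPS library of mouse 2. The difference near 0 against control turned sign with the scaling.

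**Figure D2:**
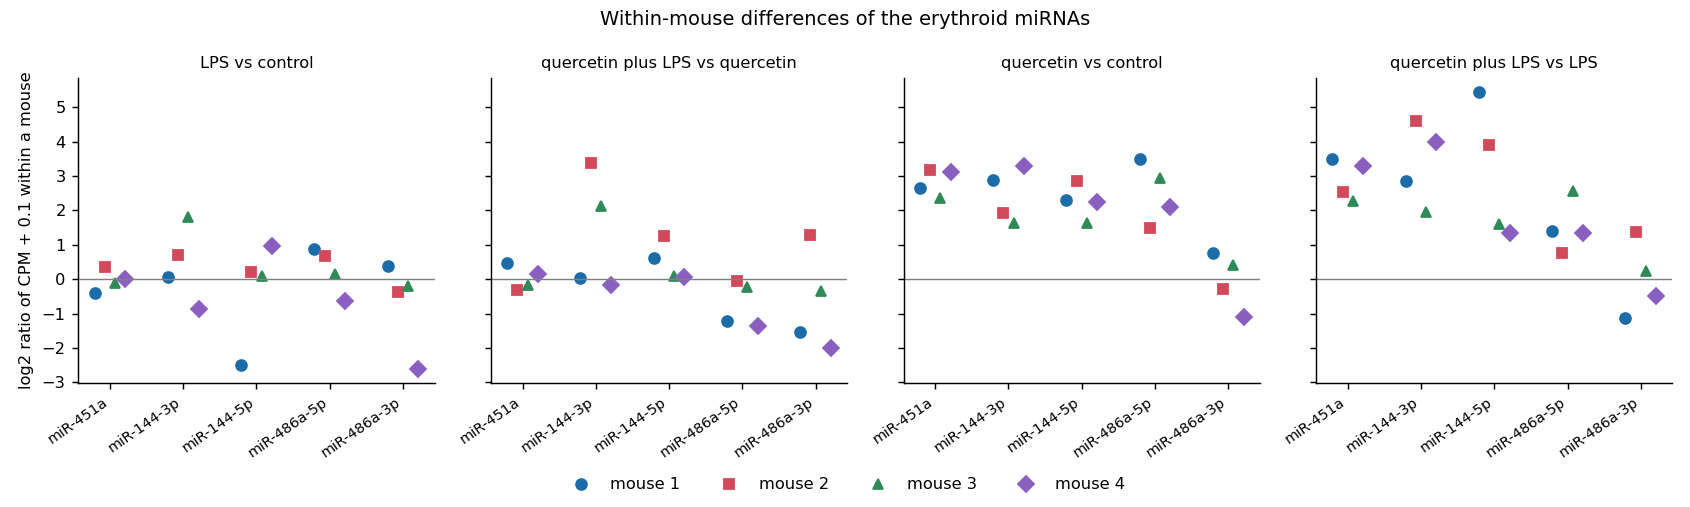
Log2 ratio of CPM + 0.1 within each mouse in 4 comparisons; each point is 1 of 4 mice. In the panels of quercetin against control and quercetin plus LPS against LPS all points lie above 0 except some of miR-486a-3p, and in the other panels most miRNAs have points on both sides of 0.

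LPS by itself called 0 of the 5 with edgeR, DESeq2 or limma-voom, where 0.528% of all miRNAs changed by edgeR and 4.58% had an unadjusted p under 0.05. None of the 5 had an unadjusted p under 0.05. miR-451a differed by -0.08 ± 0.31 on the log2 scale between LPS and control (adjusted p = 1.00, edgeR; 95% interval -0.74 to 0.58). The other 4 differed by between -0.47 and 0.41, all at an adjusted p of 1.00 (edgeR), and the LPS and control ranges overlapped for all 5, where 3.17% of all miRNAs had ranges apart.

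Adding LPS to quercetin also called 0 of the 5 with these tools, where 0.352% of all changed by edgeR and 7.22% had an unadjusted p under 0.05. Again none of the 5 had an unadjusted p under 0.05. miR-486a-5p was lower with quercetin plus LPS than with quercetin in 4 of 4 mice, at 0.433, 0.954, 0.849 and 0.387 of the quercetin level, but its log2 difference of -0.75 ± 0.43 did not pass (adjusted p = 0.69, edgeR). Without the quercetin library of mouse 1 that difference was -0.17. The log2 differences of the cluster products were 0.12 ± 0.31 for miR-451a, 0.81 ± 0.60 for miR-144-3p and 0.64 ± 0.52 for miR-144-5p (higher in 4 of 4 mice, at 1.54, 2.41, 1.06 and 1.04 times the quercetin level), and that of miR-486a-3p was -0.05; none passed.

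Whether the quercetin difference itself changed with LPS was tested as an interaction, in which 0 of the 5 and 0% of all miRNAs passed by edgeR (0 of the 5 also by DESeq2 and limma-voom), while 4.58% of all had an unadjusted p under 0.05. The interaction was 0.20 ± 0.44 for miR-451a (95% interval -0.73 to 1.13). For miR-486a-5p it was -1.16 ± 0.61 (unadjusted p = 0.076, adjusted p = 0.89, edgeR; 95% interval -2.45 to 0.13). The intervals leave room for sizeable differences in either miRNA, so a like response with and without LPS is not shown. In order of level, control and LPS cultures were the low groups for the 4 measurements that rose, and they did not differ from each other beyond their spread. Nor did the quercetin and quercetin plus LPS groups, and for miR-486a-3p no neighbours in the order differed beyond their spread.

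Because a ratio of counts within a library needs no scaling, 4 ratios were compared between groups by exact two-sided permutation tests, 16 in all, with an offset of 0.5 count. With 4 libraries against 4 the smallest p is 0.0286. The log2 ratio of miR-486a-5p to miR-486a-3p was 8.53 ± 0.137 (control), 9.55 ± 0.756 (LPS), 11.1 ± 0.470 (quercetin) and 11.1 ± 1.40 (both agents; SD, n = 4). The arms thus stood about 369 to 1 in control and 2171 to 1 with quercetin. The difference of 2.56 between quercetin and control reached the smallest exact p (0.0286), and so did that of 1.02 between LPS and control, but neither passed after adjustment over the 16 tests (adjusted p = 0.23 for both). Both differences were positive in 4 of 4 mice. A ratio could pass the adjustment only if most of the 16 tests reached the smallest p together. The adjusted values therefore cannot decide whether these ratios differed.

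For the arms of miR-144 no comparison reached the smallest exact p. The log2 ratio of miR-144-5p to miR-144-3p was -1.12 ± 1.02 (control), -2.13 ± 2.59 (LPS), -1.24 ± 1.69 (quercetin) and -2.08 ± 0.346 (both agents), with exact p from 0.43 to 0.97 over the 4 comparisons. In the quercetin group the log2 ratio was -2.65 and -2.75 in mice 1 and 4, and 0.44 and 0.00 in mice 2 and 3. miR-144-5p varied little in that group (22 to 34 counts), so these values follow the split of miR-144-3p, the lower term of the ratio. The ratio of miR-451a to miR-144-3p, the products of neighbouring hairpins, gave exact p from 0.17 to 0.63. That of miR-451a to miR-486a-5p, from separate loci, was higher by 1.38 on the log2 scale in quercetin plus LPS than in LPS cultures (exact p = 0.14).

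**Figure D3:**
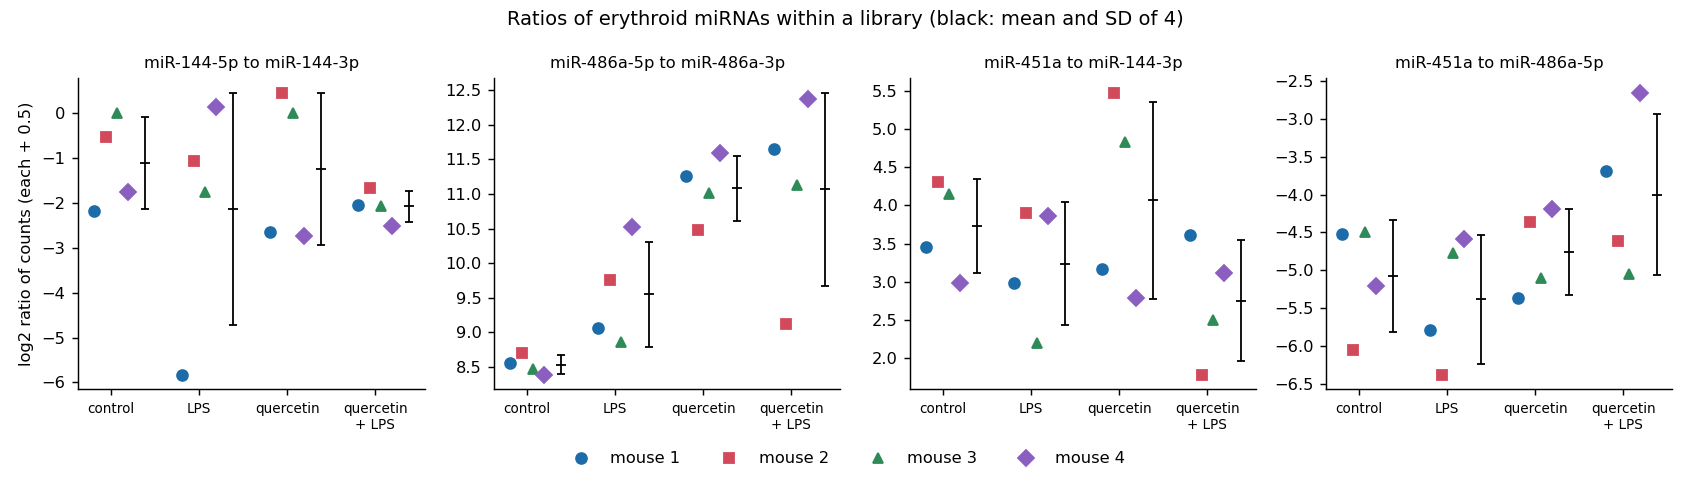
Log2 ratios of counts within each library (offset 0.5 count) for the arms of miR-486, the arms of miR-144, miR-451a over miR-144-3p and miR-451a over miR-486a-5p, by group; each point is 1 library, and black bars are the mean and SD of 4. The ratio of the miR-486 arms has its lowest values in control, at a mean of 8.53, and the arms of miR-144 spread widely in the LPS and quercetin groups.

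The miRNA that shares bases 2 to 7 with miR-144-3p did not pass. miR-101a-3p, made from a hairpin outside the cluster, stood at a mean of 1100 CPM (control), 1147 (LPS), 1926 (quercetin) and 2804 (both agents). Its log2 differences were 0.81 ± 0.48 (adjusted p = 0.30) and 1.29 (adjusted p = 0.063, edgeR) in the quercetin comparisons. It was thus far more abundant than miR-144-3p in every group.

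Other miRNAs described as rising during red cell maturation were read as a list of 18, all of which passed the filter. This list was drawn up with earlier results of these data known, so its counts are descriptions and no independent test. With quercetin against control 4 of the 18 rose and none fell, where 6.87% of all miRNAs rose and 8.98% fell, and the median log2 difference was 0.19 beside -0.05 over all 568 miRNAs. The 4 were miR-210-3p, a hypoxia-induced miRNA (2.87 ± 0.83, adjusted p = 0.026), miR-320-3p (1.39 ± 0.30, 0.0045), and miR-182-5p (1.20 ± 0.31, 0.016) and miR-96-5p (1.23 ± 0.39, 0.042) of the miR-183 cluster, by edgeR. With quercetin plus LPS against LPS 2 of the 18 rose and none fell, where 8.63% of all rose and 14.3% fell, a count near that background, with a median of 0.17 beside -0.13: miR-182-5p (1.01, adjusted p = 0.029) and miR-96-5p (1.29, adjusted p = 0.027). miR-210-3p then had 2.26 ± 0.81 (adjusted p = 0.052).

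The calls for miR-182-5p and miR-320-3p held without any single library. That of miR-210-3p against control was lost without 5 of the 8 single libraries and in the fit blocked by mouse (adjusted p = 0.0563, edgeR), and that of miR-96-5p against control was lost without 6 of 8 but not with the block. The calls of miR-96-5p and miR-182-5p against LPS alone held without any single library. Of the listed miRNAs abundant in red cells, miR-16-5p, miR-92a-3p and miR-22-3p did not pass in either quercetin comparison. Against control they differed by -0.58 ± 0.32 (adjusted p = 0.25, edgeR), 0.10 and 0.03 on the log2 scale. With quercetin plus LPS against LPS the differences were -0.49, -0.38 and -0.13. The third miRNA of the miR-183 cluster, miR-183-5p, differed by 0.35 ± 0.59 with quercetin against control (adjusted p = 0.75, edgeR).

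A second list, also drawn up with earlier results of these data known, held 10 miRNAs described as falling during red cell maturation. With quercetin against control 2 of the 10 fell and none rose, where 8.98% of all fell, with a median of -0.33 beside -0.05 over all: miR-222-3p, which targets the stem cell factor receptor KIT (-1.05, adjusted p = 0.014), and miR-28a-5p (-0.74, adjusted p = 0.020, edgeR). With quercetin plus LPS against LPS 3 of the 10 fell and none rose, where 14.3% of all fell, with a median of -0.43 beside -0.13. They were miR-222-3p (-1.30, adjusted p = 0.0027), miR-24-3p (-1.31, 0.0078) and miR-191-5p (-1.69, 0.015, edgeR). Most of these calls were lost in some fits with a single library left out. miR-222-3p against control was lost without the quercetin library of mouse 3 or 4 (highest adjusted p = 0.0568, edgeR). miR-28a-5p was lost without control 3 or the quercetin library of mouse 1 or 4 (highest adjusted p = 0.0543, edgeR). miR-24-3p and miR-191-5p were lost without the LPS library of mouse 1 or 2 or the quercetin plus LPS library of mouse 4, and miR-191-5p also without that of mouse 2. The highest adjusted p was 0.0739 for miR-24-3p and 0.137 for miR-191-5p (edgeR). miR-222-3p against LPS alone lost no call in this way, and all these calls held in the fit blocked by mouse.

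**Figure D4:**
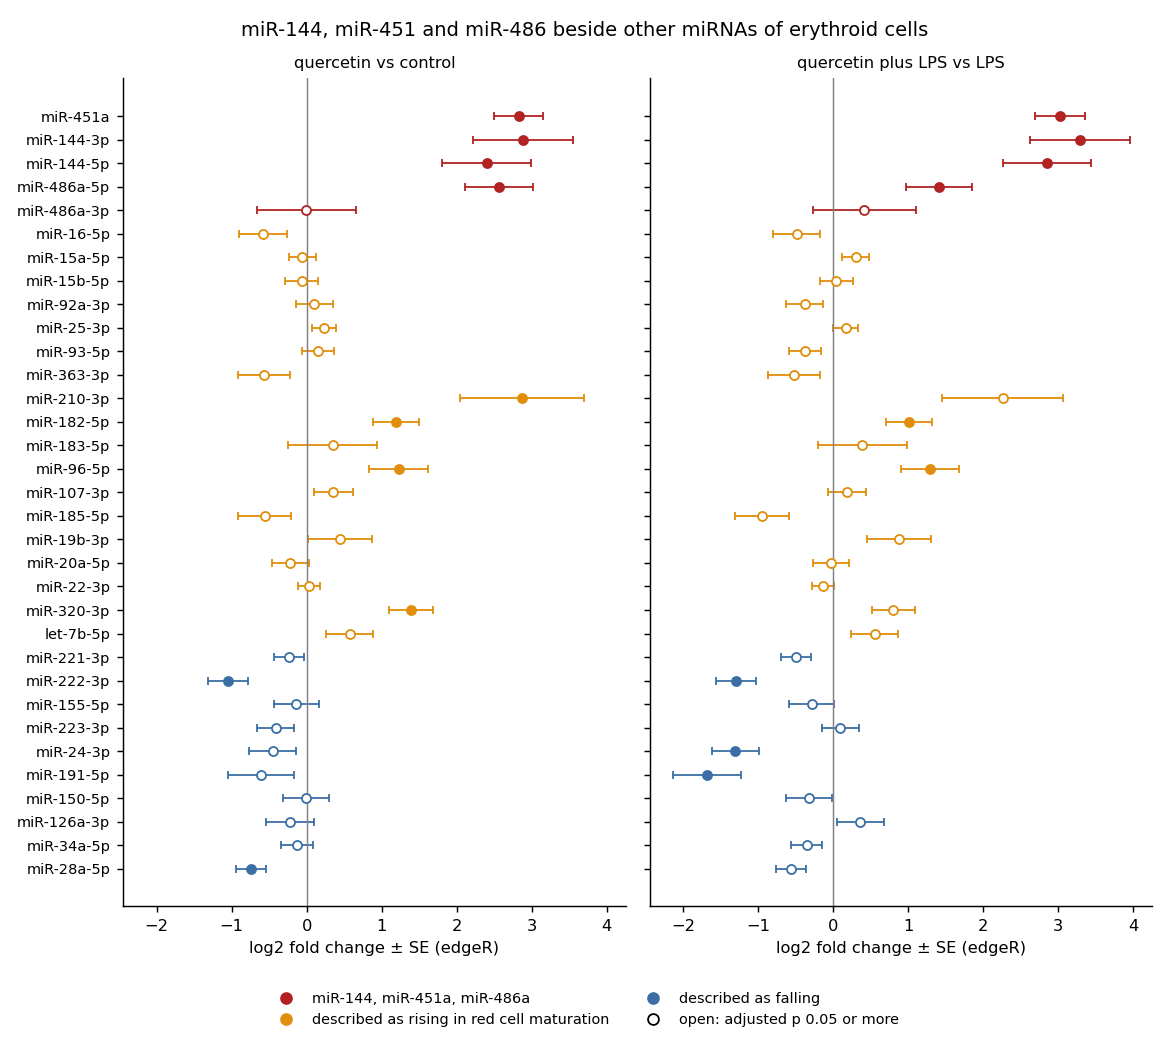
Log2 fold change with its SE (edgeR) for the 5 distinct measurements (red) and for miRNAs described as rising (18, orange) or falling (10, blue) in red cell maturation, in the comparisons with quercetin; filled points have an adjusted p under 0.05. The 4 filled red points lie at 2.40 to 2.89 in the left panel and 1.41 to 3.29 in the right one, while few listed miRNAs are filled.

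Over the 16 libraries, the 5 other miRNAs with log2 levels most like miR-451a by Pearson r were miR-215-5p (r = 0.962), miR-5121 (0.945), miR-677-5p (0.907), miR-3057-5p (0.902) and miR-7033-5p (0.889). These are descriptions of libraries that share treatments and depth. The other products of the cluster came after them, with r = 0.851 for miR-144-3p and 0.850 for miR-144-5p, and 10 miRNAs outside the group had a higher r than either. miR-486a-5p had r = 0.806 and miR-486a-3p -0.067. miR-215-5p, a p53-induced miRNA of the intestine, stood at a mean of 8.28 CPM (control), 7.29 (LPS), 52.3 (quercetin) and 66.6 (both agents), and rose by 2.66 and 3.19 on the log2 scale (adjusted p = 7.9e-06 and 1.2e-06, edgeR). Its log2 differences were thus close in size to the 2.83 and 3.03 of miR-451a.

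Markers of other tissues moved with quercetin in part. Summed levels of 7 stromal miRNAs (among them miR-143-3p and miR-145a-5p of smooth muscle and fibroblasts) ran from 24.5 to 454 CPM (control), 32.8 to 78.3 (LPS), 84.2 to 1241 (quercetin) and 96.8 to 4472 (both agents). Of the 6 tested, 4 rose with quercetin plus LPS against LPS, where 8.63% of all rose, and 0 passed with quercetin against control, where 6.87% rose. Of those 4, miR-143-3p and miR-145a-5p were lost without the quercetin plus LPS library of mouse 2 (adjusted p = 0.0669 and 0.0666, edgeR), and miR-143-3p also in the fit blocked by mouse (0.0577). The highest stromal sum, 4472 CPM, was in the quercetin plus LPS library of mouse 2, which also had the highest miR-144-3p (28.0 CPM), miR-144-5p (8.71 CPM) and miR-486a-3p (4.18 CPM) of the 16 libraries. Its miR-451a (96.0 CPM) and miR-486a-5p (2346 CPM) were not the highest. Liver miR-122-5p stood at a mean of 6.26, 6.39, 14.1 and 16.1 CPM in the 4 groups in the order above and did not pass (adjusted p = 0.12 and 0.059, edgeR). Among muscle markers, for which miR-486 is also known, miR-206-3p had no row among those analysed here, and the summed list, with miR-133a-3p and miR-1a-3p, stayed between 0.205 and 4.65 CPM in all libraries against at least 378 CPM of miR-486a-5p. miR-133a-3p rose by 2.18 with quercetin plus LPS against LPS (adjusted p = 0.019) and differed by 0.25 with quercetin against control (adjusted p = 0.82, edgeR). The part of depth and of the stromal, liver and muscle markers in the rise of the erythroid miRNAs was not tested.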

How the data were processed

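The values are counts of reads per mature miRNA in 16 libraries, deposited by the authors without normalization. Per the labels, total RNA came from a miRNeasy kit and the small RNA libraries from a TruSeq kit. Cutadapt and the build mm9 are named, per the submitters' processing notes; versions, aligner and counting rule are not given in the sources used here, so it is unknown how reads of the identical miR-486 copies were assigned.

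The table had 1381 rows. A row with text was dropped, 4 names on 2 rows were summed (among them miR-363-3p), and 4 rows whose quercetin counts looked exchanged between neighbours were left out, none next to the miRNAs described, which left 1372 names. Tests used edgeR 4.0.16 in R 4.3.3 with filterByExpr by group (568 miRNAs kept), TMM scaling, a quasi-likelihood fit with 1 coefficient for each group over all libraries, and p-values adjusted by Benjamini-Hochberg in each comparison (threshold 0.05). Standard errors are of log2 fold changes. The script was tested on simulated data. DESeq2 1.42.0, limma 3.58.1 (voom), other scalings, no filter, the mouse as a block, and libraries or mice left out were alternatives.

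Equal numbers mark libraries of 1 mouse, per the labels. Deviations from the group means correlated at a mean r of 0.135 over 24 pairs from the same mouse (11 of them over 0.1, highest 0.645). Over 72 pairs from different mice the mean r was -0.044 (21 of them over 0.1, highest 0.671). Control 3 correlated with the treated libraries of mouse 4 at 0.671, 0.469 and 0.566 and with those of mouse 3 at -0.18, -0.174 and -0.465. The block is an alternative here.

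The miRNAs and lists were chosen with earlier results of these data known. Beside them, named miRNAs were the 5 most like miR-451a by r, those sharing a seed with the miRNAs described, listed miRNAs with the smallest p, and cell type markers. Other listed miRNAs were named after their values were seen.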

Additional observations from a re-analysis of the deposited data

Results flagged for a closer look

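Of 20 sets of 4 libraries (5 measurements in 4 groups), 1 had a library far from the other 3, where chance gives about 1 in 20. It was miR-486a-5p in the quercetin group, at 6471 CPM in mouse 1 against 2458 to 2933 CPM in mice 2 to 4. Without that library the log2 difference between quercetin and control was 2.15 (adjusted p = 0.0051, edgeR), beside 2.56 with it.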

How the results depend on the processing

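With the mouse as a block, miR-451a differed by 2.82 (quercetin against control, adjusted p = 5.4e-06) and 2.92 (quercetin plus LPS against LPS, adjusted p = 3.9e-06, edgeR), and the block changed no call of the erythroid miRNAs described. Of 184 values of fold changes that passed, 0 reversed and 13 fell short of the threshold. miR-451a passed in all, at 2.70 to 3.05 and 2.87 to 3.40. Leaving out single libraries or mice, 2 to 4 of the 5 measurements were called with quercetin against control (2 without mouse 4) and 3 to 4 with quercetin plus LPS against LPS. Leaving out control 3 with the treated libraries of mouse 4, an alternative chosen after seeing the data, gave 3 and 4 calls.

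Differences that did not pass turned sign in 44 of 425 values. For miR-486a-3p, quercetin against control was 0.0265 with DESeq2 size factors, 0.1896 with upper quartile scaling, 0.1046 by library size and 0.03081 with DESeq2. Quercetin plus LPS against quercetin was 0.02361 with DESeq2 size factors, 0.02469 without the filter, 0.01813 with DESeq2, 0.08779 in a fit of these groups only and 0.02952 without controls 3 and 4. With limma-voom, quercetin plus LPS against LPS was -0.02462 for miR-486a-3p, and LPS against control was -0.5778 for miR-144-5p.

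With libraries or mice left out, LPS against control ran from -0.2582 to 0.08477 for miR-451a, -0.2154 to 0.8159 for miR-144-3p, -0.3061 to 0.5582 for miR-144-5p and -0.02614 to 0.6503 for miR-486a-5p. miR-486a-3p ran from -0.3324 to 0.2976 (quercetin against control), -0.6065 to 1.146 (quercetin plus LPS against LPS), -1.213 to 0.5313 (quercetin plus LPS against quercetin) and -0.7166 to 1.478 (interaction). Quercetin plus LPS against quercetin ran from -0.112 to 0.4448 for miR-451a. The interaction ran from -0.01928 to 0.541 for miR-451a and from -0.08782 to 1.139 for miR-144-3p.

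Ratios turned sign in 14 of 160 values. With an offset of 5 the log2 ratio of miR-144-5p to miR-144-3p differed by -0.751 between quercetin plus LPS and LPS. With libraries left out it ran from -1.181 to 0.808 there, from -1.768 to 0.22 for LPS against control and from -0.68 to 0.381 for quercetin against control. The ratio of miR-451a to miR-144-3p ran from -0.132 to 0.768 for quercetin against control. The ratio of miR-451a to miR-486a-5p ran from -0.016 to 0.517 for quercetin against control and from -0.642 to 0.018 for LPS against control. The ratio of the miR-486 arms ran from -0.453 to 0.636 for quercetin plus LPS against quercetin. miR-144-5p and miR-486a-3p had counts under 50 in nearly all libraries. miR-144-3p had 6 to 29 counts in control, 10 to 42 in LPS and as few as 25 in quercetin cultures. Such low counts limit the values that use these miRNAs. The cause of the turns was not tested.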

Other observations

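Few markers of other blood and epithelial cells passed the test with quercetin. The call for myeloid miR-223-5p with quercetin against control (-0.98 on the log2 scale, adjusted p = 0.019, edgeR) was lost without 4 of the 8 single libraries (controls 2 and 3, and the quercetin libraries of mice 3 and 4), and miR-223-5p differed by 0.01 with quercetin plus LPS against LPS. Summed levels of the lymphocyte pair (miR-150-5p and miR-150-3p) had means of 671 (control), 649.8 (LPS), 667 (quercetin) and 519 CPM (both agents), and neither passed. The pair from megakaryocytes, progenitors and endothelium (miR-126a-3p and miR-126a-5p) had 41.9, 43.5, 33.9 and 53.6 CPM in the same order, and neither passed. The 5 epithelial miRNAs had summed means of 160.5 CPM in control and 166 CPM in quercetin cultures, and their lowest adjusted p in the quercetin comparisons was 0.12 (edgeR), for miR-205-5p.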
